A study of Zea mays with 6 samples.

Results

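The genes described here lie in a 40 Mb stretch of maize chromosome 5, with listed starts from 145027105 to 184992956. Lines A12 and B46 were built to differ at the locus qKRN5.04b, and its place relative to the stretch was not tested. The stretch was chosen by its gene calls between these same libraries, so every A12 against B46 value of its genes is a description, given with no p-value. The count table lists 842 such genes among 42508, after 2 genes with a glutaredoxin domain were set aside, and 4025 other genes lie on chromosome 5. RNA was measured in immature ears of both lines, in 3 pools per line of at least 50 plants each, from ear primordia of 1.5 to 2.0 mm taken at leaf stages V6 to V9 in 1 stated batch. A12 is the line whose qKRN5.04b locus comes from teosinte, and B46 is the line whose locus comes from maize. Both are inbred lines from a cross of teosinte and maize, and each line stands for its genotype through a single line. Library totals were 14625831, 14958051 and 15675012 reads in A12, against 15156035, 15432882 and 15145371 reads in B46.

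Nearly isogenic lines share most of their genome and keep different parental DNA in a marked block, within which the genes are inherited together. Teosinte is the wild ancestor of maize, and kernel row number, the trait of the locus, is laid down while the inflorescence meristem gives off paired spikelet meristems. Maize and teosinte haplotypes are known to differ by gene presence, transposon insertions and many base changes, and reads were counted on gene models of a single table. From counts alone, a gene missing from A12, a gene not transcribed there and a gene whose diverged reads failed to align cannot be told apart. In pooled tissue, fewer cells of a type and less RNA per cell cannot be told apart either.

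Of the 842 genes, 287 had no read in any library, 155 had reads but fell below the expression filter, and 400 were tested in the fit across all genes. The tested genes were sorted into 4 classes. Near-zero genes had 3 reads or fewer summed over the 3 A12 libraries, and there were 36. Reduced genes were called lower in A12 at an adjusted p under 0.05 with more reads left, and there were 86. A further 22 genes were called higher in A12, and 256 were not called.

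The whole near-zero class was called lower, so 122 of 400 tested genes were called lower in A12, or 30.5%, beside 5.25% over all 22741 tested genes. The 22 higher genes made 5.5%, beside 4.61% over all tested genes. The near-zero genes made 9% of the tested genes in the interval, beside 0.224% over the whole table, where 51 genes met the same limit. These shares are what the interval was chosen for and nothing is read from them. The reverse class was empty: 0 of the 400 tested genes had 3 reads or fewer over the B46 libraries, beside 21 of 22341 elsewhere. At so low a share outside, 0 of 400 lies near the background and nothing is read from it.

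The median log2 fold change of the 400 genes, A12 minus B46, was -0.21, with quartiles of -1.0 and 0.10, and 66.8% lay below 0. The median over all tested genes was 0.01. Each A12 library showed the shift. Against the B46 mean, the median log2 difference was -0.22, -0.28 and -0.25 in the A12 libraries. Reads on the 842 genes were 1.56%, 1.47% and 1.50% of the library in A12, against 1.81%, 1.80% and 1.77% in B46. Over the 36 near-zero genes the A12 libraries held 1, 4 and 1 reads, against 5925, 6536 and 7139 in the B46 libraries. The 86 reduced genes summed to 20980, 21608 and 22584 reads in A12, against 43244, 44451 and 45966 reads in B46.

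**Figure D1:**
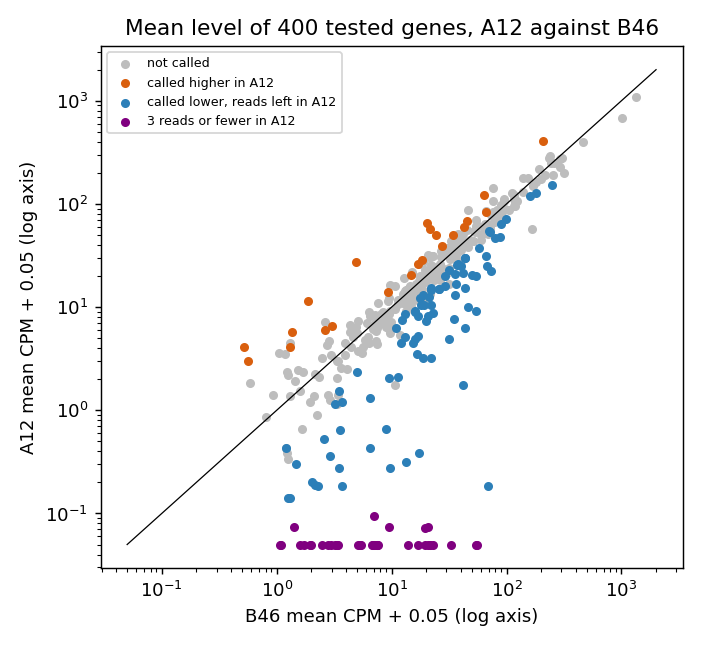
Mean CPM (library-scaled counts per 1000000 reads) of each of the 400 tested genes, A12 on the vertical and B46 on the horizontal axis, both log scales with 0.05 added, and the line of equal levels drawn. The 36 near-zero genes lie along the bottom edge over a wide range of B46 levels, and the reduced genes fill the space between them and the line.

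The calls rested unequally on single libraries. In the 6 fits that each left out 1 library, 29 of the 36 near-zero genes, 30 of the 86 reduced genes and 5 of the 22 higher genes were called every time. With A12 replicate 3 left out, 65 genes were lower, 30 of them reduced, and 5 were higher. With B46 replicate 2 left out, 65 were lower, 36 of them reduced, and 5 were higher. With B46 replicate 1 left out, 78 were lower, 44 of them reduced, and 6 were higher. Omitting B46 replicate 3 gave 12 higher genes, and omitting A12 replicate 1 gave 36. Calls over the whole table, in either direction, moved as well, from 2242 with all libraries. They numbered 401 without A12 replicate 3, 432 without B46 replicate 2 and 714 without B46 replicate 1. Without B46 replicate 3 there were 1410, without A12 replicate 2 there were 2190, and without A12 replicate 1 there were 4446. The moves are thus not particular to the interval.

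The tissue label was checked on marker lists. The meristem list (knotted-like, WUSCHEL-related, FASCIATED EAR2 and THICK TASSEL DWARF1 annotations, 21 tested) summed to 1093, 1452 and 1357 CPM in A12, against 1427, 1354 and 1138 CPM in B46, with 3 members called higher and 4 of 38 listed at 0 in all libraries. Floret MADS-box genes (annotations MADS-box 1, 6, 7, 8 and 58) summed to 738, 126 and 303 CPM in A12, against 0.0655, 4.08 and 0 CPM in B46. All 8 tested were called higher, with 1 of 9 listed at 0. Leaf photosynthesis genes summed to 678, 128 and 276 CPM in A12, against 183, 210 and 272 CPM in B46, with 1 of 39 tested called higher and 11 of 66 listed at 0. The floret list thus separated the lines and A12 replicate 1 stood highest on both lists. Their part in the values of the interval was not tested.

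Along the chromosome, the change was spread over the interval and interrupted many times. In steps of 1 Mb, 32 of 40 steps held a gene called lower, 20 held a near-zero gene, and 37 had a median log2 fold change below 0. Step medians lay between -1.13, at 27 to 28 Mb from the start of the interval, and 0.58, at 12 to 13 Mb. At least 50% of the tested genes were called lower in 7 steps, among them the step at 35 to 36 Mb, where 9 of 15 were lower and 5 were near-zero. In the first 20 Mb, 43 of 128 tested genes were lower and 21 were near-zero. In the last 20 Mb, 79 of 272 were lower and 15 were near-zero, a division made after the values were seen.

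**Figure D2:**
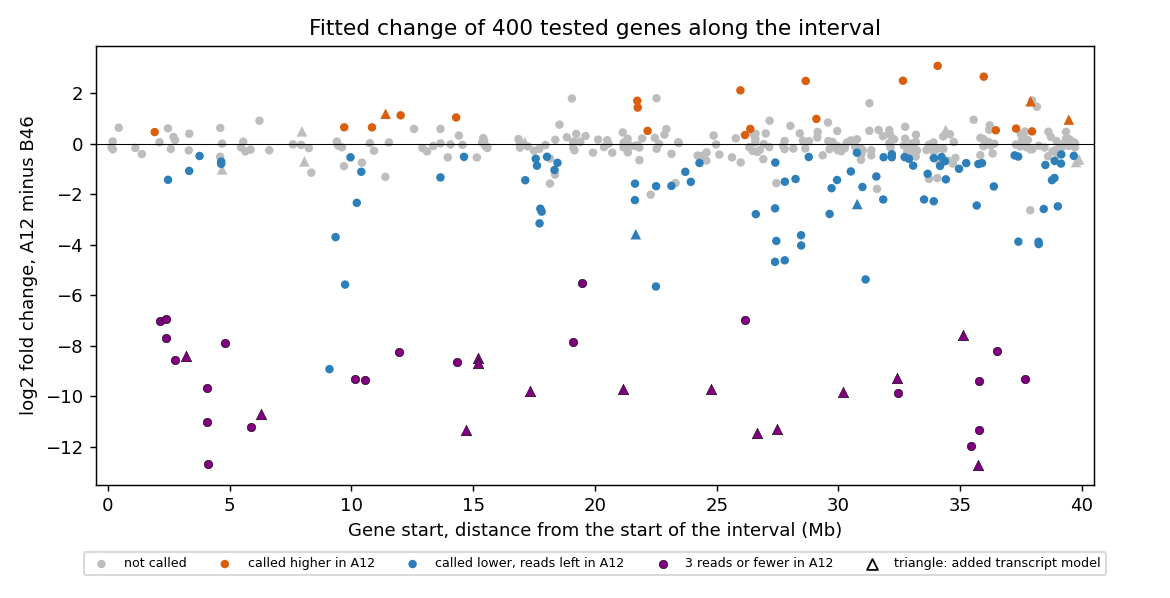
The log2 fold change (A12 minus B46) of the 400 tested genes against the distance of the gene's start from the start of the interval in Mb, coloured by class, with triangles for transcript models added by the submitters. Near-zero genes mostly lie below the reduced ones, at fitted values that depend on a prior count and are no bound, and both classes recur along the whole interval among genes near 0.

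The near-zero genes began at 147145612 and the last started at 182671950. The median spacing of neighbouring starts was 503 kb, and the widest gap, 3848 kb, ran between the starts at 151301418 and 155149134. The 36 fell into 29 runs of consecutive tested genes, 24 of them single genes. A directly neighbouring tested gene that was not called stood beside 27 of the 36. As 64% of the tested genes were not called, nothing is read from that count. A near-zero direct neighbour stood beside 12, a reduced one beside 9, and 7 had only near-zero or reduced direct neighbours. All lower genes fell into 78 runs, of which 49 were single genes and the longest held 5. The longest stretch of consecutive genes that were not called held 11 genes, between 160362755 and 162128747.

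Fewer calls outside the ends follow from the choice of the interval, so the genes there are only described. In the 5 Mb before it, 26 genes were tested, with 1 lower (3.85%), 1 higher (3.85%) and 0 near-zero. In the 5 Mb after it, 70 were tested, with 4 lower (5.71%), 2 higher (2.86%) and 0 near-zero. Over all tested genes, 5.25% were lower, 4.61% higher and 0.224% near-zero. At the boundary itself, none of the 3 tested genes on either side of either end was called. Just inside the start, Zm00004b013502, annotated as transcription factor GTE4, had counts of 737, 1153 and 1090 in A12, against 1215, 1249 and 1170 in B46. Just outside it, Zm00004b013490, a protein phosphatase 2C annotation, had 684, 574 and 683 in A12, against 504, 493 and 639 in B46. At the far end, the last tested gene inside, an added transcript model, had 84, 54 and 68 in A12, against 111, 104 and 119 in B46. The first outside, Zm00004b014311, an isoprenoid pathway enzyme annotation, had 307, 275 and 282 in A12, against 440, 386 and 379 in B46.

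**Figure D3:**
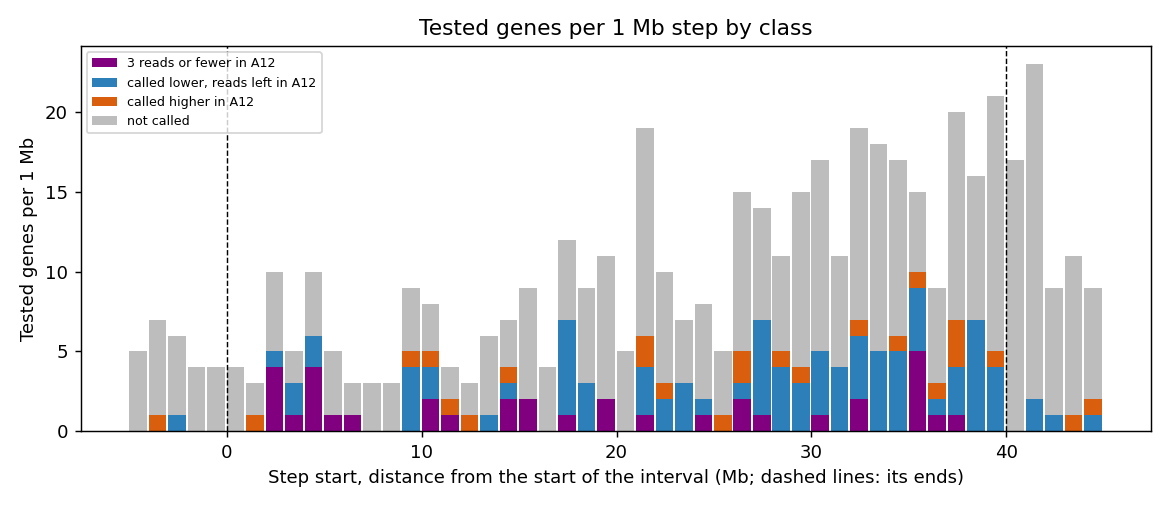
Tested genes in each 1 Mb step, stacked by class, from 5 Mb before to 5 Mb after the interval, whose ends are the dashed lines, with distance from its start in Mb. Near-zero genes occupy 20 of the 40 inner steps and none of the outer ones, while the number of tested genes per step rises toward the far end.

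Near-zero genes differed from the other classes in length, level and annotation, measures the choice of interval did not use. The class limit counts reads, and these genes passed the expression filter through B46 alone, so both bear on level. Through level they can also bear on length and annotation. Their median length was 1356 bases, beside 1745 in reduced, 1712 in higher and 1900 in uncalled genes, and 44.4% were under 1000 bases, beside 12.1% of uncalled genes. In B46 their median was 4.85 FPKM (fragments per kilobase, scaled to library size), beside 11.7 in reduced and 11.3 in uncalled genes. Neither a Swiss-Prot match nor a Pfam domain was listed for 47.2%, beside 20.9% of reduced and 10.5% of uncalled genes. Among genes with an identifier, such genes were 7 of 22 near-zero, 16 of 84 reduced and 25 of 249 uncalled genes. No test was made of these differences.

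The table also holds transcript models that the submitters added to the gene annotation and gave no gene identifier. The interval lists 30, and of the 26 tested, 14 were near-zero, 2 were reduced, 3 were higher and 7 were not called. Near-zero genes were thus 53.8% of the added models, beside 22 of 374 annotated genes, or 5.88%. Elsewhere, 4 of 1408 tested added models, or 0.284%, were near-zero in A12 and 2 in B46. Added models were 6.5% of tested genes inside the interval and 6.3% outside it. The 14 near-zero models summed to 0, 0 and 0 reads in A12, against 2469, 2813 and 2991 in B46. The sources used here do not say how the models were assembled or from which libraries. A model built from reads of B46 alone could lack A12 reads by construction, which bears on what 53.8% near-zero means, and this was not tested.

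**Figure D4:**
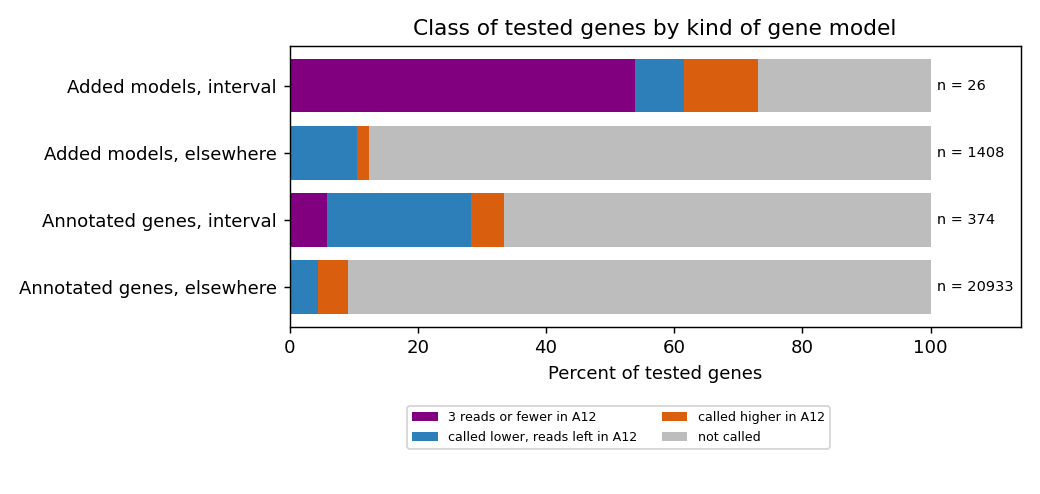
Percent of tested genes in each class, for added transcript models in the interval (26) and elsewhere (1408) and for annotated genes in the interval (374) and elsewhere (20933). Near-zero genes make 53.8% of the added models in the interval and too small a share elsewhere to be seen at this scale.

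The near-zero model with the most B46 reads spanned 180725662 to 180747660 and resembles the Pol polyprotein of the RE1 retrotransposon, a copia-like element. It had counts of 0, 0 and 0 in A12, against 744, 952 and 859 in B46, at least 271-fold lower in A12 by a floor of 3 counts per library. A model at 171661119 to 171664702, matching a RICESLEEPER protein of the hAT transposon family, had 0, 0 and 0 in A12, against 342, 335 and 385 in B46. Both were read in all B46 libraries and in no A12 library. A model at 159688417 to 159690399, resembling an endoplasmic reticulum to Golgi intermediate protein, had 0, 0 and 0 in A12, against 300, 329 and 362 in B46. A model without annotation at 172462666 to 172465035 had 0, 0 and 0 in A12, against 304, 309 and 356 in B46. A further 5 models without A12 reads started at 151301418, 162327416, 166147886, 169771298 and 175179595, with B46 counts between 94 and 239 per library. The most-read added model of the interval was called higher and lay at 184462121 to 184466955, with 2162, 1477 and 1836 counts in A12, against 941, 965 and 1051 in B46. It has no annotation, and its call was lost without A12 replicate 3, B46 replicate 1 or B46 replicate 2. It was named after its values were seen.

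Among the 22 annotated near-zero genes, membrane receptors and transporters were among the most-read in B46. Zm00004b013550, at 149105542 to 149113810, is annotated as the receptor-like kinase TMK2; TMK kinases relay auxin signals at the cell surface in Arabidopsis. It had 0, 0 and 0 counts in A12, against 867, 810 and 819 in B46, at least 265-fold lower. Zm00004b014179, at 180454289 to 180459357, is annotated as metal tolerance protein 5, of a family of cation efflux carriers. It had 0, 0 and 0 in A12, against 443, 524 and 573 in B46. Neither gene had a read in any A12 library, and the B46 libraries lay close together.

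Zm00004b013527, at 147145612, carries the annotation of the rice potassium channel KAT1, a name shared with a voltage-gated channel of Arabidopsis guard cells. It had 0, 1 and 1 counts in A12, against 71, 116 and 136 in B46, a ratio of B46 to A12 counts of 155 with a 95% exact interval from 42.5 to 1282. The inactive receptor kinase annotation Zm00004b013672 had 0, 1 and 0 in A12, against 124, 175 and 139 in B46. The serine/threonine kinase annotation Zm00004b014246, at 182671950, had 1, 0 and 0 in A12, against 256, 278 and 372 in B46. Single reads in A12 were all that these genes showed there, and intervals of this kind cover counting error only.

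Other near-zero genes spanned several cell functions. Zm00004b014186 is annotated as SOSEKI 3, of a family of polarly localised proteins in Arabidopsis, and had 0, 0 and 0 counts in A12, against 257, 316 and 419 in B46. Its neighbour Zm00004b014187, a pentatricopeptide repeat protein of a family that handles organelle RNA, had 0, 1 and 0 in A12, against 261, 324 and 381 in B46. The beta-carotene 3-hydroxylase annotation Zm00004b014082, a carotenoid pathway enzyme, had 0, 0 and 0 in A12, against 120, 122 and 111 in B46. All 3 were read deeply in each B46 library. Zm00004b013587, without annotation, had 0, 0 and 0 in A12, against 289, 259 and 350 in B46.

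Zm00004b013548 carries the name of coatomer subunit beta'-2, a part of the coat of Golgi vesicles, although its listed domain is a major sperm protein domain. It had 0, 0 and 0 counts in A12, against 234, 232 and 316 in B46. A second gene of the interval with the same name and a coatomer domain, Zm00004b013728, had 1907, 1831 and 1982 in A12, against 1696, 1716 and 1722 in B46, and was not called. The first gene of that name lacked A12 reads, while the second had more reads in every A12 library than in any B46 library. Across the table, 16 of the 36 near-zero genes had a Swiss-Prot match, and 11 of these matches were shared by tested genes outside the interval. Of those 23 outside genes, 2 were called lower (8.7%) and 1 higher (4.35%), with a median log2 fold change of -0.05. Over all tested genes outside the interval, 4.8% were lower and 4.59% higher, so counts this small lie near the background.

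The 20 near-zero genes of highest B46 CPM were called in all 6 fits that left out 1 library. The other 16 were read less in B46. One of them, Zm00004b013565, is annotated as a subunit of the actin-nucleating ARP2/3 complex and had 0, 0 and 0 counts in A12, against 27, 44 and 20 in B46. That gene lost its call without B46 replicate 2. Zm00004b013529, named for the DELLA protein DWARF8, a repressor of gibberellin responses in maize, had 0, 0 and 0 in A12, against 26, 21 and 31 in B46. Its model is 465 bases long, so the name rests on a short stretch. It was chosen after its values were seen.

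Between 180681090 and 180771855, 5 consecutive tested genes were lower within 90.8 kb, and 3 of them were near-zero. The first, Zm00004b014184, a riboflavin biosynthesis enzyme annotation, had 39, 31 and 21 counts in A12, against 151, 181 and 191 in B46. The RE1-like model followed with no A12 read. Zm00004b014185, a choline transporter-like annotation between near-zero neighbours, had 130, 144 and 133 in A12, against 229, 274 and 243 in B46, so it kept reads where both neighbours had none. The SOSEKI 3 and pentatricopeptide repeat genes closed the run. Farther on, Zm00004b014190 had 121, 112 and 134 in A12, against 82, 117 and 129 in B46, which overlap. The nitrate and peptide transporter family gene Zm00004b014195 (NPF6.4), at 180970385, was higher in A12, with 216, 115 and 177 counts, against 39, 26 and 19 in B46. Near-zero, reduced, uncalled and higher genes thus stood side by side here. Zm00004b014184 and Zm00004b014190 were named after their values were seen.

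The 86 reduced genes kept a median of 38.5% of the B46 CPM in A12. Of these, 14 kept under 10%, 15 kept 10 to 25%, 23 kept 25 to 50%, 33 kept 50 to 75% and 1 kept over 75%. The class was therefore a range of losses that reached down to the near-zero limit. Zm00004b013619 stood just above that limit, with 3, 0 and 3 counts in A12, against 1010, 1065 and 1148 in B46. It bears the name of ribosomal protein S4, although the domain listed is of unknown function. DNA polymerase I A of the chloroplast, Zm00004b013630, had 5, 2 and 5 counts in A12, against 194, 205 and 216 in B46, and was named after its values were seen. Zm00004b014053, a mitogen-activated protein kinase kinase kinase annotation, had 4, 5 and 1 in A12, against 133, 165 and 152 in B46, likewise named after its values were seen. In each of the 3 genes no A12 library came near any B46 library.

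**Figure D5:**
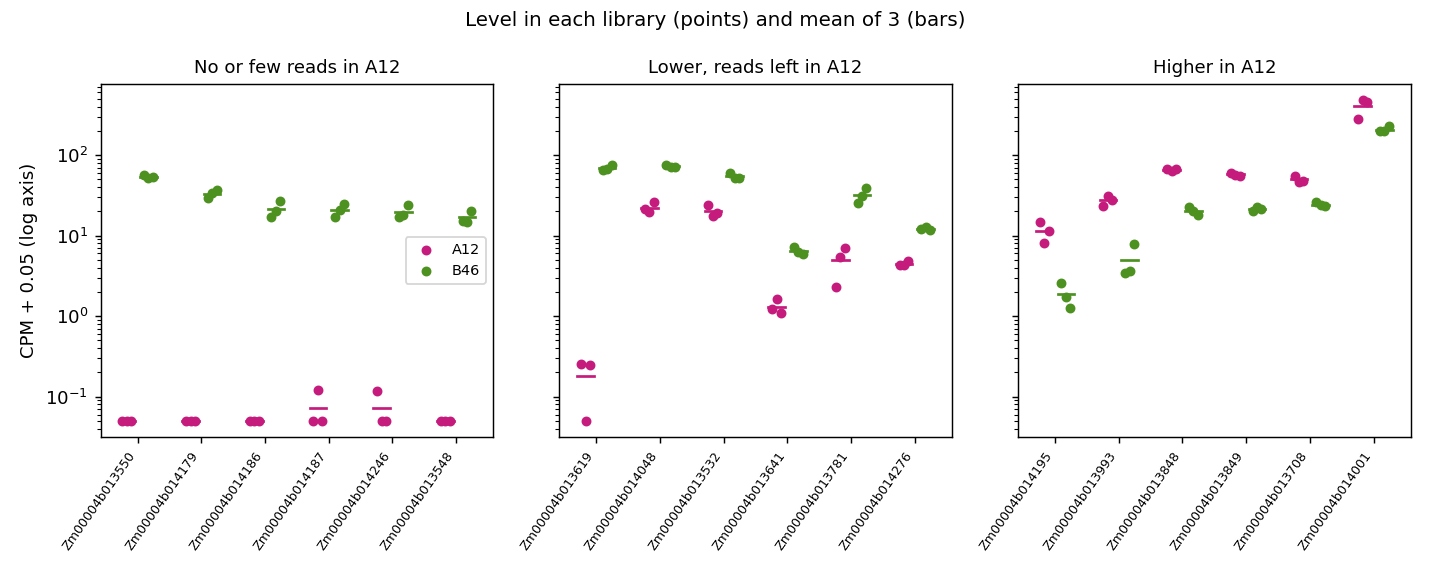
CPM of 6 near-zero, 6 reduced and 6 higher genes in each library (points) with the mean of 3 (bars), on a log axis with 0.05 added, A12 left of B46 for each gene. The lines do not overlap in any of the 18 genes, and near-zero genes sit at the axis floor in A12. The same held for all 36 near-zero, 86 reduced and 22 higher genes, so the lack of overlap adds nothing to their calls.

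Among reduced genes of growth and signalling, Zm00004b013532 is annotated as GW2, a RING-type E3 ubiquitin ligase that limits grain width in rice. It had 352, 248 and 295 counts in A12, against 902, 822 and 796 in B46, a log2 fold change of -1.43 (SE 0.14). Zm00004b014048, a KIWI-type RNA polymerase II coactivator, had 313, 280 and 398 in A12, against 1163, 1112 and 1115 in B46, a log2 fold change of -1.72 (SE 0.12). The poly(ADP-ribose) polymerase annotation PARP3, Zm00004b013956, had 200, 97 and 108 in A12, against 639, 753 and 1110 in B46. All 3 were called in every fit that left out 1 library, and their groups did not overlap. All 86 reduced and all 22 higher genes lacked overlap, so here and below it adds nothing to a call.

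The hormone keywords matched 5 of the 400 tested genes, beside 353 of 22741 over the whole table. Zm00004b013641, annotated as the abscisic acid receptor PYL9, had 17, 23 and 16 counts in A12, against 110, 98 and 91 in B46, a log2 fold change of -2.34 (SE 0.26), and was called in all 6 fits. Auxin response factor 7, Zm00004b014078, had 1883, 1668 and 1771 in A12, against 2633, 2553 and 2250 in B46, a log2 fold change of -0.42 (SE 0.10) that was not called without A12 replicates 2 or 3 or B46 replicates 1 or 2. The AUX/IAA repressor annotation IAA7, Zm00004b013627, had 239, 262 and 248 in A12, against 368, 405 and 681 in B46, and was not called although the groups did not overlap. In the group as written, 2 of 5 tested members were reduced, 0 near-zero, 0 higher and 3 not called, beside 29 lower and 31 higher of 353 in the whole table. The keywords missed the near-zero gene Zm00004b013529, named for the DELLA protein DWARF8.

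The SMAX1-LIKE family was reduced at one gene and higher at another. SMAX1-LIKE 4 is known in Arabidopsis for a part in phloem development, as is its relative SMAX1-LIKE 3. Zm00004b013781, annotated SMAX1-LIKE 4 and named after its values were seen, had 33, 77 and 108 counts in A12, against 392, 479 and 596 in B46. Zm00004b013993, annotated SMAX1-LIKE 3, had 344, 442 and 427 in A12, against 51, 56 and 120 in B46, a log2 fold change of 2.48 (SE 0.32). The 2 names moved in opposite directions within the interval, each without overlap and called in all 6 fits.

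Other reduced regulators were named after their values were seen. LITTLE ZIPPER 4, Zm00004b013955, of a family of small proteins that restrain class III homeodomain factors in Arabidopsis, had 1, 3 and 2 counts in A12, against 47, 53 and 70 in B46. The homeobox annotation ATH1, Zm00004b013644, had 314, 517 and 544 in A12, against 1025, 1062 and 1018 in B46. SUPPRESSOR OF GAMMA RESPONSE 1, Zm00004b014268, a DNA damage response factor in Arabidopsis, had 31, 43 and 66 in A12, against 219, 265 and 393 in B46. None of the 3 overlapped between lines. The ATH1 gene lost its call without A12 replicate 3, B46 replicate 1 or B46 replicate 2, while the other 2 kept theirs in all 6 fits. LRL3, Zm00004b014115, a basic helix-loop-helix annotation, had 248, 87 and 110 in A12, against 751, 734 and 670 in B46, and lost its call in those same fits.

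Small losses at high levels made the other end of the class. Ribosomal protein L11, Zm00004b013556, had 1778, 2391 and 2613 counts in A12, against 3542, 3721 and 4334 in B46, a log2 fold change of -0.71 (SE 0.15). The brassinosteroid pathway kinase annotation GSK4, Zm00004b013545, had 872, 1160 and 1123 in A12, against 1505, 1540 and 1581 in B46. Transmembrane 9 protein 1, Zm00004b014042, had 766, 836 and 839 in A12, against 1054, 1067 and 1152 in B46, the smallest loss of the class, at -0.36 (SE 0.09). Their groups did not overlap. The calls of L11 and GSK4 were lost without A12 replicate 3 or any B46 replicate, and that of the transmembrane gene in every fit but the one without A12 replicate 1. Histone H3.3, Zm00004b014142, had 579, 736 and 809 in A12, against 1259, 1374 and 1456 in B46, and lost its call without B46 replicate 2.

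The 22 higher genes had a median A12 level of 201% of B46, and 11 were over 200%. The largest log2 fold change was 3.08 (SE 0.62), in the phototropism protein annotation Zm00004b014135, with 96, 33 and 51 counts in A12, against 2, 8 and 12 in B46. Zm00004b014195, the NPF6.4 gene described above, followed at 2.65 (SE 0.34). Zm00004b014087, a monooxygenase annotation, had 56, 41 and 33 in A12, against 8, 13 and 3 in B46. The inositol polyphosphate multikinase IPK2, Zm00004b013923, had 84, 85 and 84 in A12, against 30, 19 and 12 in B46. The phototropism and monooxygenase genes lost their calls without A12 replicate 3, B46 replicate 1 or B46 replicate 2, and IPK2 without A12 replicate 3 or B46 replicate 2.

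A pair of higher genes lay side by side. Zm00004b013848, without annotation at 166739589, had 986, 902 and 1032 counts in A12, against 346, 320 and 275 in B46, a log2 fold change of 1.70 (SE 0.11). Zm00004b013849, a UBX domain protein annotation at 166757733, had 876, 822 and 856 in A12, against 309, 352 and 332 in B46, a log2 fold change of 1.43 (SE 0.09). The ribosomal RNA methyltransferase annotation Zm00004b013708 had 802, 670 and 737 in A12, against 397, 371 and 358 in B46. Every A12 library was over every B46 library in these 3, and all were called in all 6 fits. Histone H3.2, Zm00004b014001, had 4153, 6998 and 7013 in A12, against 3013, 3094 and 3515 in B46, and lost its call without A12 replicate 3 or any B46 replicate. Histone families have many near-identical copies, so reads of H3.2 and H3.3 may be shared with other genes.

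Most tested genes, 256 of 400, were not called, with a median log2 fold change of -0.06. Among the most-read were phosphoenolpyruvate carboxylase 1, Zm00004b013534, with 4132, 4324 and 4357 counts in A12, against 4390, 3975 and 2779 in B46, which overlap. The gamma-glutamylcyclotransferase annotation Zm00004b013785, of glutathione breakdown, had 13539, 7061 and 9306 in A12, against 15943, 15797 and 15182 in B46, and the lines did not overlap. Zm00004b013895, annotated MEI2-like 4, of an RNA-binding family to which maize terminal ear1 belongs, had 3261, 2698 and 2926 in A12, against 5805, 5329 and 3629 in B46, also without overlap and without a call. In all, 83 of the 256 uncalled genes did not overlap between lines, and 227 of the 400 tested genes did not, or 56.8%, beside 33.4% over the whole table.

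In 5 genes the A12 libraries disagreed among themselves, with 2 reads or fewer in one and 20 or more in another. The heat stress factor annotation C-2a, Zm00004b013608, had 193, 0 and 44 counts in A12, against 191, 187 and 172 in B46. The FCS-like zinc finger annotation Zm00004b014254 had 45, 0 and 32 in A12, against 215, 187 and 96 in B46. A cytochrome P450 of the CYP73A family, Zm00004b013788, had 90, 0 and 16 in A12, against 6, 1 and 6 in B46, and MYB106, Zm00004b014178, had 22, 2 and 8 in A12, against 13, 9 and 9 in B46. In these 4, A12 replicate 2 was lowest and replicate 1 highest, the order the leaf and floret lists also had, and a link was not tested. Zm00004b013531 went the other way, with 2, 28 and 30 in A12, against 12, 18 and 11 in B46. In B46, 2 genes met the same limits, Zm00004b014174 with 0, 0 and 0 in A12, against 0, 4 and 27 in B46, and Zm00004b014175 with 0, 0 and 0 in A12, against 1, 12 and 58 in B46. The median SD of log2 CPM over the 400 genes was 0.195 in A12 and 0.146 in B46, and 0.213 in A12 and 0.146 in B46 over tested genes elsewhere. The 400 include the 36 near-zero genes, whose median SD in A12 was 0 because they had almost no reads there. In A12 it was 0.226 in reduced, 0.149 in higher and 0.206 in uncalled genes.

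Genes were also grouped by annotation keywords, whose matching was corrected after a first count by class had been seen, so the counts are descriptions and 181 of the 400 tested genes fell in no group. A keyword match is not a function, and a gene can fall in several groups. The counts stand beside the interval's own 30.5% lower and 5.5% higher, and nothing is read from them. Protein turnover held 29 tested genes, with 0 near-zero, 10 reduced, 1 higher and 18 not called, and a median log2 fold change of -0.28. Over the whole table this group had 79 lower and 71 higher of 1540 tested genes. GW2 belongs here, as does the SUD1-type E3 ligase Zm00004b014167, with 310, 318 and 310 counts in A12, against 635, 669 and 653 in B46. Kinases, receptors and phosphatases held 34, with 4 near-zero, 5 reduced, 2 higher and 23 not called, and a median of -0.17, beside 109 lower and 73 higher of 1993 in the whole table. The transport keywords matched 23, with 3 near-zero, 3 reduced, 1 higher and 16 not called, beside 71 lower and 77 higher of 1144. Among the uncalled matches were 26S proteasome subunits (Zm00004b014294 and Zm00004b013765), which are no membrane transporters. Its sugar transporter Zm00004b014153 had 598, 228 and 289 counts in A12, against 1150, 1056 and 901 in B46. That transporter was called only with all libraries or without A12 replicate 1.

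The transcription factor and chromatin keywords matched 31 genes, with 1 near-zero, 5 reduced, 1 higher and 24 not called, beside 129 lower and 152 higher of 1922 in the whole table. The near-zero match is the RICESLEEPER-like transposon protein, and the uncalled ones include the kinase CTR1 (Zm00004b013943) and the autophagy receptor annotation JOKA2 (Zm00004b014259), so these are not all transcription factors or chromatin genes. RNA processing held 23, with 1 near-zero, 2 reduced, 0 higher and 20 not called, beside 32 lower and 26 higher of 1183. Ribosome and translation held 13, with 0 near-zero, 4 reduced, 0 higher and 9 not called, and a median of -0.09, beside 13 lower and 48 higher of 828. The initiation factor 4B1 annotation Zm00004b014276 was one of its reduced members, with 63, 62 and 73 counts in A12, against 184, 200 and 179 in B46. Vesicle traffic and cytoskeleton held 11, with 2 near-zero, 1 reduced, 0 higher and 8 not called, beside 20 lower and 29 higher of 564. Metabolic enzymes, the largest group, held 71, with 1 near-zero, 12 reduced, 3 higher and 55 not called, and a median of -0.11, beside 176 lower and 226 higher of 3927. Transposon-related annotations held 4, of which 3 were near-zero and 1 was higher, beside 17 lower and 3 higher of 134, the higher one being a ubiquitin-like activating enzyme annotation with a reverse transcriptase domain. The immune receptor group had 4 listed genes and 0 tested. Every tested group other than the transposon one had most of its members uncalled.

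The first matching moved a count by over 1.5 times in 5 groups. It counted 0 near-zero and 3 reduced transcription factor matches, 5 reduced RNA processing genes, 0 near-zero vesicle genes, and 0 higher genes in protein turnover and among transposon annotations. Counts in the other groups stayed within 1.5 times those above.

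The 155 genes with reads below the filter held 779 reads in A12 and 1382 in B46. Of these, 69 had 0 reads in A12 and 20 had 0 reads in B46. The single gene with most B46 reads and none in A12 had 71, and that with most A12 reads and none in B46 had 33.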

How the data were processed

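Polyadenylated RNA of immature ears was sequenced in 3 libraries each of A12 and B46, with groups taken from the titles. Unscaled counts of reads per gene and FPKM values were deposited by the authors. The submitters' processing notes list HISAT2 2.0.5 and DESeq2 1.20.0. Build, counter and strand setting were not given in the sources used here. Hence coordinates stand as listed, and reads of overlapping, antisense or near-identical genes cannot be told apart. No genome sequence was used here. Gene names are the table's best Swiss-Prot match, a similarity to a protein often of another species, and several genes can share one.

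Counts were fitted over the whole table in R 4.3.3 with edgeR 4.0.16: default expression filter (22741 genes kept), TMM scaling, quasi-likelihood test of A12 minus B46 without covariates, Benjamini-Hochberg adjustment, calls under 0.05. The fit was tested on simulated data. Log2 fold changes carry their standard error (SE). CPM are counts per 1000000 reads after TMM scaling. Where A12 had 0 reads the fold is a bound against 3 counts per library. DESeq2 1.42.0 and limma 3.58.1, on log2(FPKM + 0.1) with a mean FPKM minimum of 0.5, served as alternatives, with other scalings, filters, step widths and near-zero limits, a replicate block and the omission of each library.

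The interval, classes and gene lists were chosen with earlier results of these data known. Named genes were the 20 near-zero genes of highest B46 CPM, the 10 reduced genes of highest B46 CPM and the 5 of smallest loss, the 10 higher genes of largest change, the 6 uncalled genes of highest CPM, 3 tested genes on each side of each end, genes whose A12 libraries disagree, and up to 3 genes per keyword group and class; the text gives part of these. Keyword groups were first matched with capitals in 6 groups. After the counts by class had been seen, capitals were ignored, those groups were matched from the start of a word, and acyl-carrier proteins left the transport group, because capitalised names had been missed; both counts are given. Genes named after their values were seen, and the split of the interval at its middle, were added later.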

Additional observations from a re-analysis of the deposited data

How the results depend on the processing

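Other scalings, DESeq2, a filter of 1 CPM in 3 libraries and limma on FPKM kept the counts of lower, reduced and higher genes within 1.5 times those reported, and no result reversed. Without an expression filter, near-zero genes numbered 127, of which 40 were called lower, and the median log2 fold change was -0.31. Near-zero genes numbered 31 at 0 reads, 45 at 10 reads or fewer and 42 below 5% of the B46 CPM. A gene called lower lay in 54 steps of 0.5 Mb and in 19 steps of 2 Mb. Leaving out 1 library each gave 65 to 154 lower, 30 to 111 reduced and 5 to 36 higher genes, and medians of -0.27 to -0.19. Calls over the whole table then ran from 401 to 4446, beside 2242 in the main fit. With the replicate block, 54 genes were reduced and 10 higher, and 967 genes were called over the whole table. Deviations of log2 CPM from the line mean correlated at -0.12, -0.014 and 0.005 between same-numbered libraries of the lines. Between differently numbered libraries they ran from -0.119 to 0.152. With 3 libraries per line, these values cannot settle whether the numbers pair the libraries. The causes of these moves were not tested. Of the named genes' values under these alternatives, 144 lost the call, 17 gained one and 1203 kept their side of it. Under the first keyword matching, added after the data were seen, near-zero genes were 0 among transcription factors and 0 in vesicle traffic, reduced genes were 3 among transcription factors and 5 in RNA processing, and higher genes were 0 in protein turnover and 0 among transposon annotations. A gene read little in B46 could not enter the near-zero class, so depth limits its size.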
